A study of Homo sapiens with 20 samples.

Results

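The zinc finger genes of chromosome 19 are the protein-coding genes of that chromosome whose symbols are ZNF followed by digits, taken from GENCODE release 44 on GRCh38. There are 240 of them among 20033 protein-coding genes of chromosomes 1 to 22, X and Y, and they were chosen by name and position alone. They were compared with the 1236 other protein-coding genes of chromosome 19 and with 236 genes of the same naming on other chromosomes. For each member a region in the promoter, 1 kb to either side of a transcription start site (TSS), was counted apart from a region elsewhere in the gene body or the 1 kb upstream.

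Most of these genes encode proteins with a row of C2H2 zinc fingers that read DNA. In most of them the fingers follow a KRAB domain, which binds the corepressor TRIM28 and through it brings the histone methyltransferase SETDB1 and heterochromatin proteins. The family arose by repeated gene duplication, so neighbours in a cluster often have closely related sequences, and many members silence particular classes of transposable elements.

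Binding was mapped by ChIP-seq in 4 established human lines. NCI-H526 and NCI-H1048 are small cell lung cancers of the POU2F3 subtype (SCLC-P), and MM1.S and NCI-H929 are multiple myelomas. Cells received DMSO or 1 µM AU-15330, a small molecule that sends SMARCA2 and SMARCA4, the ATPases of the mSWI/SNF remodeller, to the proteasome, for 4 to 6 h by the labels, which state 6 h for the HA libraries of NCI-H1048 cells. The 20 peak lists pair up as 10 comparisons of AU-15330 with DMSO. In NCI-H526 cells these are POU2F3 with an antibody to the protein, HA-POU2F3 and HA-POU2AF2, and in NCI-H1048 cells POU2F3, HA-POU2F3 and an HA pair for which the tagged protein is not named in the labels. In both myeloma lines they are POU2AF1 and IRF4. POU2F3 is the octamer-binding factor of tuft cells, POU2AF2 and POU2AF1 are coactivators of POU2F proteins, and IRF4 is a plasma cell factor. HA-POU2F3 and HA-POU2AF2 also carry the dTAG degron, by the labels, and by the study's methods were expressed from lentivirus in Cas9-expressing cells whose endogenous gene had been knocked out. Whether these were clones or pools, and what construct the unnamed HA pair carries, was not given in the sources used here. With 1 library per condition, no value below has a replicate, differences between treatments, proteins, lines or gene groups are given without a test, and genes are not replicates of a condition.

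The lists hold 1327 to 89902 regions, and the background pileup of the 18 libraries for which it could be recovered runs from 1.21 to 4.03 reads. For the POU2F3 antibody it was 4.03 with DMSO and 2.02 with AU-15330 in NCI-H526 cells, but 2.27 and 3.04 in NCI-H1048 cells. HA-POU2AF2 had 3.49 and 1.21. A list from a deeper library calls weaker regions, so the members' share in a list is set beside the share of all genes in that list. Members held 0.151% to 0.644% of the regions of a list in their windows.

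The sequences below show what POU2F3 and IRF4 regions at these genes look like. Each site is the 121 bases centred on the summit of a called region, on the plus strand of GRCh38. Capitals mark matches on either strand to TTTGCAT, the octamer core that POU2F proteins bind (its other strand reads ATGCAAA), or to the IRF pattern. The first 4 are promoter regions with an octamer core, at chr19:43619912-43620032 (ZNF428, NCI-H526 POU2F3), chr19:55600334-55600454 (ZNF524, NCI-H526 HA-POU2F3), chr19:12333842-12333962 (ZNF563, NCI-H1048 HA-POU2F3) and chr19:12156929-12157049 (ZNF625, NCI-H1048 HA-POU2F3), all with DMSO. The one after them is a gene body region bound by POU2F3 at chr19:30630421-30630541 (ZNF536, NCI-H526). The last site is the summit of the IRF4 region in the body of ZNF677 at chr19:53246630-53246750 in NCI-H929 cells.
ZNF428: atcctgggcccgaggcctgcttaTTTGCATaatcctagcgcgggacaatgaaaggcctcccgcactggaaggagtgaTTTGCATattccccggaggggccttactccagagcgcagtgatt
ZNF524: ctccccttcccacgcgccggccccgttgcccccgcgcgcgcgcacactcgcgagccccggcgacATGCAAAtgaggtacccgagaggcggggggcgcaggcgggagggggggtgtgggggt
ZNF563: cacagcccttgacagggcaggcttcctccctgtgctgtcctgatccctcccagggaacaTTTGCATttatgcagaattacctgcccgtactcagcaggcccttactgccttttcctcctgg
ZNF625: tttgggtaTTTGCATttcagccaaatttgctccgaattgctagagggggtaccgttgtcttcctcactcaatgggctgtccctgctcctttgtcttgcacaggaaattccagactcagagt
ZNF536: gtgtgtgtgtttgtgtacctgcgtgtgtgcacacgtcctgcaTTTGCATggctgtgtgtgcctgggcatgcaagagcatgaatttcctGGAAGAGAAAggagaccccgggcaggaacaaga
ZNF677: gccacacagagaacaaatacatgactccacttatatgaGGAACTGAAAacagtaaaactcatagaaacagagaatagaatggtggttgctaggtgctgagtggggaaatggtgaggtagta
ZNF428 holds 2 copies of the octamer core and each of the other 4 POU2F3 sites holds 1. The ZNF536 site has an IRF match as well. The promoters below run from 250 bases before to 50 after the RefSeq start on the gene's own strand (GRCh38.p14). They are ZNF564 (chr19:12551433-12551732, minus strand) and ZNF627 (chr19:11597233-11597532, plus strand), which had a region in every DMSO list, and ZNF568 (chr19:36916082-36916381, plus strand), shown for the ETS sequence CCGGAAGT that many members share.
ZNF564: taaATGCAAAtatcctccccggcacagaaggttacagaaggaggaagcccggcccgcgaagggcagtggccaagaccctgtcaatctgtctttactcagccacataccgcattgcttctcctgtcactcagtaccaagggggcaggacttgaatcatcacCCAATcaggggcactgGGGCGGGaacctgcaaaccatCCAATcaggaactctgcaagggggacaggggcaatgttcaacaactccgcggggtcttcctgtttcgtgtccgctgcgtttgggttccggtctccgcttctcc
ZNF627: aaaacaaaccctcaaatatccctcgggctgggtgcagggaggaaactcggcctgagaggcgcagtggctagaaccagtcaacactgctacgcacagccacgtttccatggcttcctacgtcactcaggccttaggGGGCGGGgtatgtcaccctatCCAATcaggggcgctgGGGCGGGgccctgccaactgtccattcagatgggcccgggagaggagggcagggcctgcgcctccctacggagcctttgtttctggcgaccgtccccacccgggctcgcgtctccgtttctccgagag
ZNF568: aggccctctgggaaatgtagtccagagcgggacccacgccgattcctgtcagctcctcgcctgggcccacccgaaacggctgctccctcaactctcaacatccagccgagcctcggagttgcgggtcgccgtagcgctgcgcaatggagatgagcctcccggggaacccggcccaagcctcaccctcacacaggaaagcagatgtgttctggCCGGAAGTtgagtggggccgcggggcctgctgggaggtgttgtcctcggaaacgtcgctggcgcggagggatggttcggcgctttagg
Capitals in these 3 promoters mark the octamer core, CCAAT of NFY, the ETS sequence, and GGGCGGG of Sp and KLF factors. ZNF564 has an octamer core near its upstream end, while the promoter window of ZNF627 has none.

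With DMSO, POU2F3 had a region at the promoters of most of these genes in NCI-H526 cells. The antibody gave one at 174 of the 240 members (72.5%), where 57% of all protein-coding genes had one, as did 49.5% of the other genes of chromosome 19 and 75% of the ZNF genes elsewhere. HA-POU2F3 gave 156 members (65%, all genes 50.6%, ZNF genes elsewhere 66.1%) and HA-POU2AF2 104 (43.3%, all genes 37.3%, ZNF genes elsewhere 48.3%). The same antibody found 127 members in NCI-H1048 cells (52.9%, all genes 39.7%, ZNF genes elsewhere 53.8%). The HA lists of that line were lower at members than at all genes, with HA-POU2F3 at 33 members (13.8% against 16.2%) and the unnamed HA protein at 35 (14.6% against 17.2%). ZNF genes elsewhere had 20.3% and 19.1% there. In each of these SCLC-P lists the members lay below ZNF genes elsewhere, so a share above all genes was not particular to chromosome 19.

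In myeloma cells the share of members was below that of all genes in all 4 DMSO lists. POU2AF1 had a promoter region at 136 members in MM1.S cells (56.7%, all genes 58.5%) and at 113 in NCI-H929 cells (47.1%, all genes 55.3%). IRF4 had one at 95 members in MM1.S cells (39.6%, all genes 46.8%) and at 144 in NCI-H929 cells (60%, all genes 62.6%). ZNF genes of other chromosomes were well above both in these 4 lists, at 64% to 80.9%. Promoter windows covered a mean of 3.5 kb per member and 3.82 kb per gene, so those of members were no larger. The median fold enrichment of member promoter regions was 3.5 to 5.28 over the DMSO lists, and 3.43 to 5.22 for all promoter regions. Fold enrichment is the authors' value of the summit over the local background of its library, and serves to rank regions within a list.

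**Figure D1:**
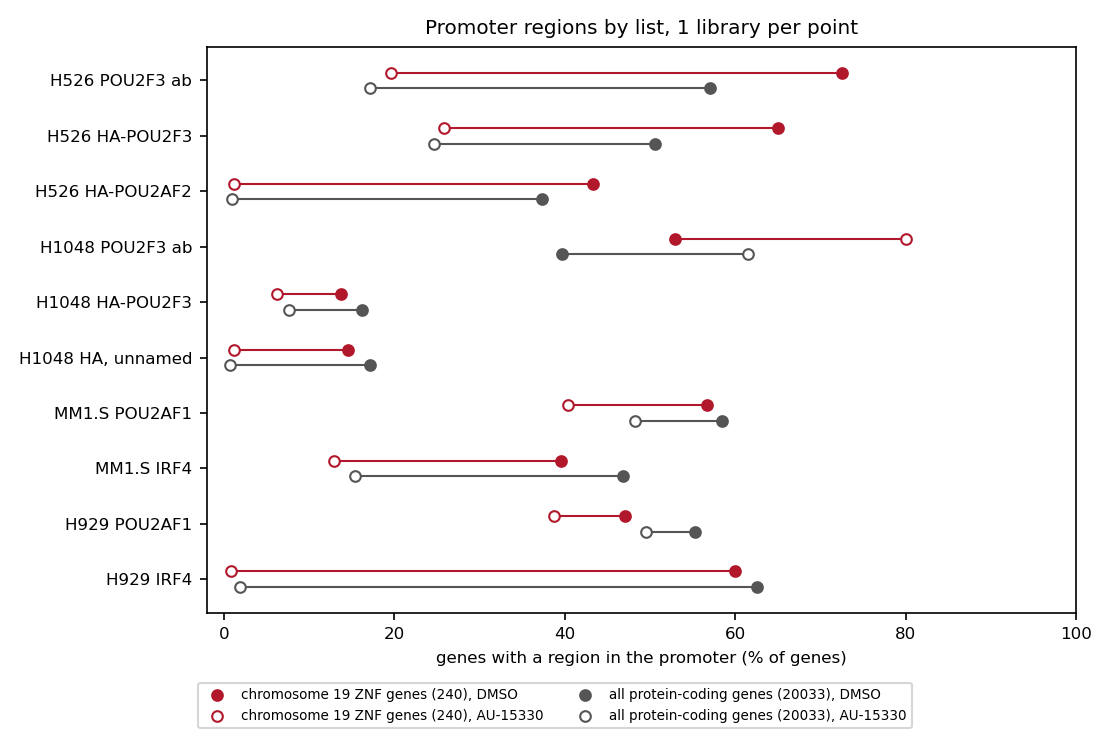
Share of genes with a promoter region (x axis, percent) in each of the 10 pairs (y axis), for the 240 chromosome 19 ZNF genes in red and all 20033 protein-coding genes in grey, with DMSO as filled and AU-15330 as open points, each from 1 library. Members lie right of all genes in the 3 NCI-H526 pairs and in the NCI-H1048 POU2F3 pair with DMSO, left of them in the other 6, and only in the NCI-H1048 POU2F3 pair is the AU-15330 share the higher one.

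Few members had a promoter region in every list, and few had none. Over the 10 DMSO lists 4 members had one in all (1.67%, all genes 4.46%), namely ZNF428, ZNF524, ZNF564 and ZNF627, and 18 had one in none (7.5%, all genes 25.2%). Of the ZNF genes elsewhere 5.93% had one in all and 9.32% in none, the latter near the share of members. Most members thus lay in between, with 5 lists as the most frequent number (38 members). The 18 without any are ZNF90, ZNF99, ZNF154, ZNF177, ZNF208, ZNF229, ZNF404, ZNF486, ZNF506, ZNF534, ZNF541, ZNF577, ZNF626, ZNF676, ZNF723, ZNF728, ZNF729 and ZNF878. All 4 myeloma lists had a promoter region at 58 members (24.2%), against 39.8% of all genes and 56.4% of ZNF genes elsewhere, and all 3 NCI-H526 lists at 71 (29.6%), against 30.2% and 39.8%. Both held for 32 members (13.3%, all genes 21.2%). A promoter region in all 3 NCI-H526 lists and in no myeloma list was seen at ZNF30, ZNF382, ZNF432, ZNF625, ZNF677 and ZNF880 (2.5%, all genes 1.23%). The reverse, all 4 myeloma lists and no SCLC-P list, was seen at ZNF296 alone (0.417%, all genes 1.53%), where the region of IRF4 in MM1.S cells had a fold of 8.44.

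Shares differed widely between the clusters of the chromosome. Neighbouring members with less than 500 kb between them were taken as a cluster, which gave 10 clusters of at least 5 members holding 228 of the 240. The pericentromeric cluster of the short arm, ZNF101 to ZNF254 (37 members, chr19:19668796-24129968), holds 10 of the 18 members without any DMSO region. The POU2F3 antibody in NCI-H526 cells with DMSO had a promoter region at 29.7% of its members (all genes 57%). HA-POU2F3 in that line had one at 51.4% (all genes 50.6%) and HA-POU2AF2 at 27% (all genes 37.3%). In the cluster ZNF565 to ZNF573 (24 members, chr19:36182276-37817300) the antibody list of NCI-H526 cells had one at 100%, in ZNF628 to ZNF835 (16 members) at 93.8%, in ZNF175 to ZNF331 (39 members, chr19:51571283-53580269) at 84.6% and in ZNF264 to ZNF446 (41 members) at 80.5%.
The order was another in myeloma cells. The cluster ZNF175 to ZNF331, high in NCI-H526 cells, had a promoter region at 38.5% of members for POU2AF1 and 15.4% for IRF4 in MM1.S cells, and at 23.1% and 35.9% in NCI-H929 cells, where all genes had 58.5%, 46.8%, 55.3% and 62.6%. Of its 39 members 14 had none in any myeloma list (35.9%, all genes 32.2%). The other SCLC-P line, NCI-H1048, was not high at this cluster. With DMSO it had 43.6% for the POU2F3 antibody, 10.3% for HA-POU2F3 and 15.4% for the unnamed HA protein (all genes 39.7%, 16.2% and 17.2%). The 15 other protein-coding genes of the cluster were low in NCI-H526 and myeloma cells, at 20% for POU2F3 in NCI-H526 cells and 6.67% to 13.3% in the myeloma lists. At the other end the cluster ZNF414 to ZNF846 (13 members, chr19:8509678-9793180) had IRF4 at 92.3% in NCI-H929 cells and POU2F3 at 61.5% in NCI-H526 cells. In ZNF264 to ZNF446 the 2 myeloma lines differed, with POU2AF1 at 73.2% in MM1.S and 29.3% in NCI-H929 cells, while all genes had 58.5% and 55.3%. The 25 other protein-coding genes of that interval differed alike, at 56% and 28%, so the difference was not particular to the members.

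**Figure D2:**
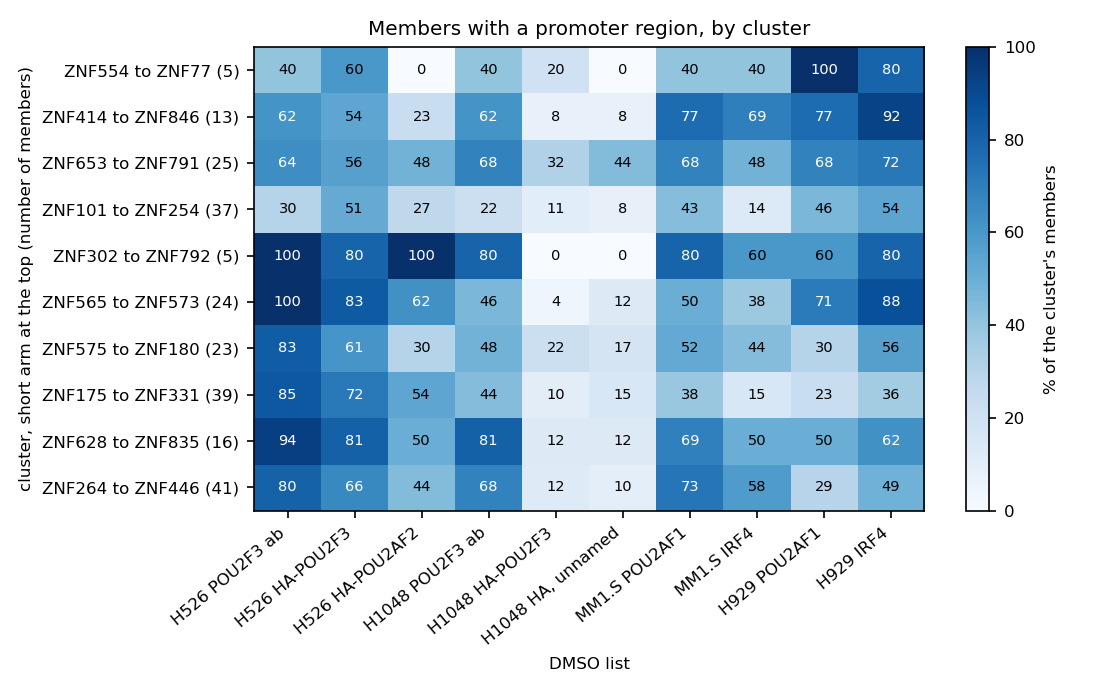
Percent of members with a promoter region in each DMSO list (columns) for the 10 clusters of at least 5 members (rows, from the short arm at the top to the end of the long arm, number of members in parentheses), 1 library per column. The ZNF101 to ZNF254 row is pale in the first NCI-H526 column (29.7%), where ZNF565 to ZNF573 reaches 100%, but has 51.4% in the HA-POU2F3 column of that line. ZNF175 to ZNF331 is dark in the NCI-H526 columns (53.8% to 84.6%) and pale in the myeloma columns (15.4% to 38.5%). In the NCI-H1048 columns it has 43.6%, 10.3% and 15.4%.

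Members with and without a KRAB pattern in their protein differed as well. A KRAB pattern was found in the translated coding sequence of 201 members, whose fingers number 3 to 36 (median 13), and not in 39 (1 to 20, median 10), among them ZNF428, ZNF524, ZNF536 and ZNF576. Members without the pattern had a promoter region more often in 19 of the 20 lists, HA-POU2AF2 with AU-15330 in NCI-H526 cells being the exception (0% against 1.49%). With DMSO the shares were 82.1% against 70.6% for POU2F3 in NCI-H526 cells (all genes 57%), 69.2% against 54.2% for POU2AF1 (58.5%) and 56.4% against 36.3% for IRF4 (46.8%) in MM1.S cells. With AU-15330 the same lists had 35.9% against 16.4% (all genes 17.1%), 64.1% against 35.8% (48.3%) and 28.2% against 9.95% (15.4%).

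The promoters of the family also differ from others in sequence. In windows from 250 bases before to 50 after the canonical start, 17.9% of members hold the ETS sequence CCGGAAGT, against 6.14% of all 20033 promoters and 14.8% of those of ZNF genes elsewhere. CCAAT, the NFY box, is in 52.1% (all 36.1%), the octamer core in 6.67% (all 3.53%), AAGATGGC of YY1 in 6.25% (all 4.04%) and GGGCGGG in 51.7% (all 47.1%). GCGCATGC of NRF1 is in 3.75% (all 4.27%) and TGACGTCA, the cyclic AMP response element, in 3.75% (all 2.69%). Other genes of chromosome 19 were near the members for the YY1 sequence (6.15%), GGGCGGG (52.3%) and TGACGTCA (3.64%). They were lower for the ETS sequence (6.63%), CCAAT (37.4%) and the octamer core (2.99%), and higher for NRF1 (5.58%). The IRF pattern is in none of the 240 windows and in 5.57% of all. The median GC content is 59.3% (all 63.7%). Members with a POU2F3 promoter region in DMSO-treated NCI-H526 cells had a median ratio of observed to expected CpG of 0.801, and 46% of them a CCAAT, and the 66 members without one had 0.611 and 68.2%. This did not hold in every list, since members with an HA-POU2F3 region in NCI-H1048 cells had 0.717 and 69.7% and those without 0.78 and 49.3%, and for IRF4 in NCI-H929 cells CCAAT was in 52.1% of both. A match is a description of the window and not a binding site.

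At the summits themselves POU2F3 regions of member promoters mostly lacked the octamer core, whereas those in member gene bodies often had it. Within 100 bases of the summit the core was found in 9.74% of the 195 member promoter regions of the POU2F3 antibody in DMSO-treated NCI-H526 cells and in 48.2% of the 83 gene body regions. All promoter regions of that list had it in 11.3% of cases and all regions outside promoters in 52.8%, so members followed the list. The shares at member promoters and bodies were 6.4% and 39.1% for HA-POU2F3, 6.36% and 48.5% for HA-POU2AF2, and 11.3% and 45.8% for the POU2F3 antibody in NCI-H1048 cells. HA-POU2F3 in NCI-H1048 cells stood apart, since 32.4% of its 34 member promoter regions had the core, against 16.3% of all its promoter regions, and 31.6% of its 19 body regions, against 58.8% of all its regions outside promoters. Myeloma regions had it in 0.621% to 3.39% of member promoters and 7.89% to 13% of bodies.
ETS sequences were more frequent at member promoter summits than at all promoter summits in 8 of the 9 DMSO lists with summits. They lay at 12.8% against 5.78% for the POU2F3 antibody in NCI-H526 cells, 19.5% against 9.02% in NCI-H1048 cells, and 14.2% against 4.41% for POU2AF1 and 13.3% against 4.52% for IRF4 in MM1.S cells. None of the 34 member promoter regions of HA-POU2F3 in NCI-H1048 cells had one (all promoters 2.91%). The IRF pattern was at 2.86% and 2.48% of member promoter summits of IRF4 in MM1.S and NCI-H929 cells (all promoters 5.91% and 5.53%), and at 21.1% of the 19 and 18.4% of the 38 body summits, where all regions outside promoters had 21.3% and 18.2%.

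**Figure D3:**
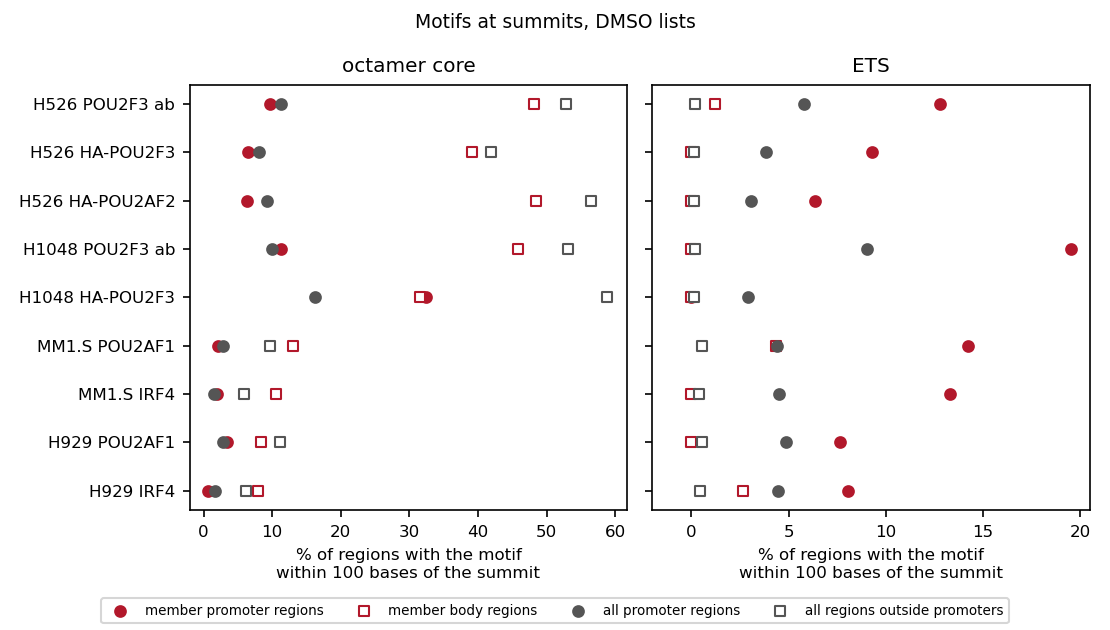
Percent of regions (x axis) with an octamer core (left) or an ETS sequence (right) within 100 bases of the summit, for the 9 DMSO lists with summits (y axis), at member promoters and bodies (red) and at all promoters and all regions outside promoters (grey), 1 library per row. Body regions (squares) lie far right of promoter regions for the octamer in the POU2F3 and POU2AF2 lists except HA-POU2F3 of NCI-H1048 cells, where both red points are near 32%, and red circles lie right of grey ones for ETS in 8 of 9 rows.

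An octamer core at a promoter summit in all 5 DMSO lists of POU2F3 and POU2AF2 was seen at 5 members, ZNF428, ZNF524, ZNF563, ZNF564 and ZNF625. Any promoter region of the gene counted here, and the strongest HA-POU2AF2 region of ZNF524 (fold 4.84) lacked the core. For 4 of the 5 members a summit is printed above, and for ZNF564 the promoter. A further 23 had one in at least 1 of these lists, so that it was seen at 28 members in all and at 16 in 2 or more.
ZNF428, which encodes a small protein of 188 residues with 1 finger and no KRAB pattern, had a strong region in most lists. The gene spans chr19:43607224-43619629 on the minus strand, and its region covers the start. In NCI-H526 cells with DMSO its fold enrichment was 14.7 for POU2F3, 15.4 for HA-POU2F3 and 11.3 for HA-POU2AF2. The NCI-H1048 values were 16.1, 15.3 and 7.63 for POU2F3, HA-POU2F3 and the unnamed HA protein. POU2AF1 gave 12.7 in MM1.S and 12.9 in NCI-H929 cells, and IRF4 5.5 and 5.88. The region was thus called in all 10 DMSO lists. With AU-15330 the region was called in 8 of the 10 lists, with 12.8 and 12.1 for POU2F3 and HA-POU2F3 in NCI-H526 cells, 13.3, 4.52 and 4.95 in the 3 NCI-H1048 lists, 8.01 and 12 for POU2AF1 in MM1.S and NCI-H929 cells and 6.25 for IRF4 in MM1.S cells. HA-POU2AF2 in NCI-H526 and IRF4 in NCI-H929 cells had none. On the level scale, the pileup at the summit divided by the library's own background pileup, POU2F3 had 60.2 with DMSO and 39 with AU-15330 in NCI-H526 cells and 54.3 and 61.6 in NCI-H1048 cells, and HA-POU2F3 in NCI-H1048 cells 45.5 and 8.65.
ZNF524 (chr19:55600022-55603138, plus strand), also without a KRAB pattern, had folds of 7.25, 9.51 and 4.84 in the NCI-H526 DMSO lists, 8.47, 6.44 and 4.16 in those of NCI-H1048 cells, and 4.63 to 7.36 in the myeloma lists. It kept a region in 7 AU-15330 lists. ZNF563 (chr19:12317477-12333720, minus strand) had 10.8 for POU2F3 in NCI-H526 and 8.2 for HA-POU2F3 in NCI-H1048 cells, and 4.24 to 5.12 in 3 myeloma lists. ZNF625 (chr19:12142090-12156734, minus strand) had 8.36 for HA-POU2F3 in NCI-H1048 cells and no myeloma region with DMSO. ZNF564 (chr19:12525373-12551542, minus strand) had 6.44 to 9.2 in the 5 lists and 3.51 to 8.27 in the myeloma lists.
Strong regions without the octamer core were seen too. ZNF576 (chr19:43596392-43601157, plus strand), a neighbour of ZNF428, had POU2F3 folds of 12.1 in NCI-H526 and 11.9 in NCI-H1048 cells and POU2AF1 folds of 11.4 and 9.84, and its SCLC-P summits hold the NRF1 sequence. ZNF793 (chr19:37506939-37548762) had 14.1 for POU2AF1 in NCI-H929 cells and no region in MM1.S cells. ZNF350, which encodes a KRAB protein known to bind BRCA1, had 14.3 for POU2AF1 in MM1.S and 9.59 in NCI-H929 cells.

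**Figure D4:**
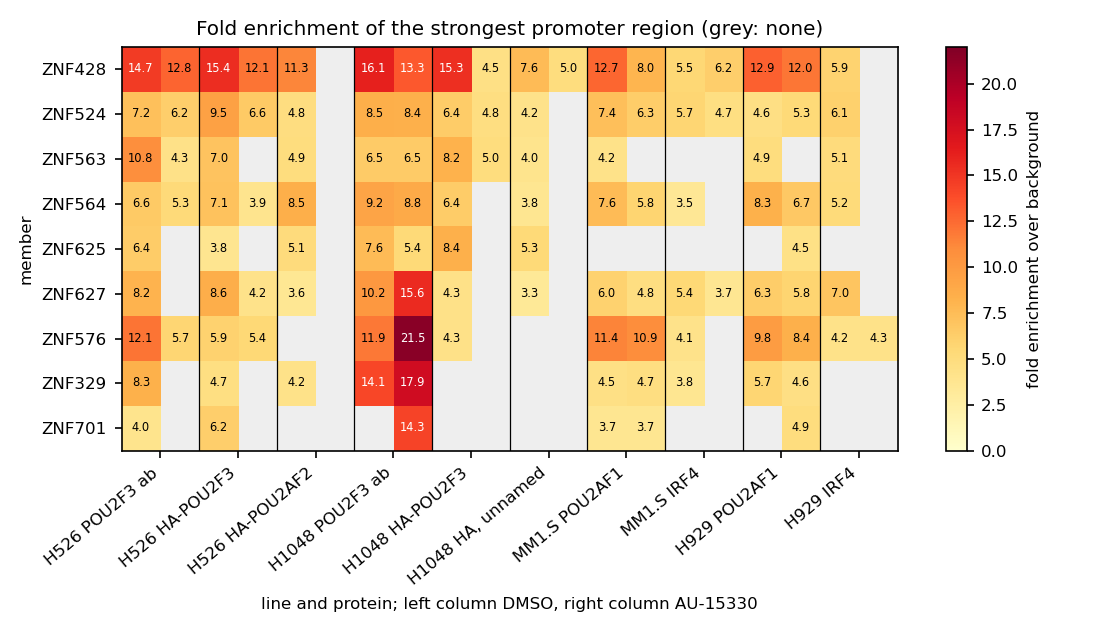
Fold enrichment of the strongest promoter region (colour and number) of 9 members (rows) in the 20 lists (columns, DMSO left and AU-15330 right within each pair, grey where no region was called), 1 library per column. The first 5 rows have an octamer core at the summit of a promoter region in the 5 POU2F3 and POU2AF2 DMSO lists. For ZNF524 with HA-POU2AF2 the strongest region, shown here (4.84), lacks it. The other 4 were picked to show ZNF627, which has a region in every DMSO list, and high values with AU-15330 in NCI-H1048 cells, up to 21.5 at ZNF576.

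Members with a known role showed no common pattern. ZNF274, whose protein brings SETDB1 to the 3′ ends of ZNF genes, had a promoter region in 5 DMSO lists, HA-POU2F3 of NCI-H526 cells (fold 5.33) and the 4 of myeloma cells (4.13 to 5.99). ZNF91, which silences SVA elements, had one in 7 lists, the highest for HA-POU2F3 in NCI-H1048 cells (6), and ZNF93, which silences L1 elements, in 6 (3.55 to 4.4). ZNF331, an imprinted gene, had 8.21, 8.86 and 6.77 in the 3 NCI-H526 lists, 6.63 for POU2F3 in NCI-H1048 cells and 4.2 and 4.35 in NCI-H929 cells. ZNF808 had 9.62 for POU2AF1 in MM1.S cells and 3.57 to 4.76 in 4 other lists. ZNF568, whose mouse counterpart silences a placental form of Igf2, had 3.87 to 5.12 in the NCI-H526 lists and 4.89 and 4.06 in NCI-H929 cells. ZNF473, which takes part in histone mRNA processing, had one in 9 lists, with 9.72 for POU2F3 in NCI-H1048 and 8.38 in NCI-H526 cells.

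With AU-15330 fewer members had a called promoter region in 9 of the 10 pairs, and more in the POU2F3 antibody pair of NCI-H1048 cells. In NCI-H526 cells the number was 47 for POU2F3 (19.6%, all genes 17.1%), 62 for HA-POU2F3 (25.8%, all genes 24.7%) and 3 for HA-POU2AF2 (1.25%, all genes 0.973%). In NCI-H1048 cells it was 15 for HA-POU2F3 (6.25%, all genes 7.7%) and 3 for the unnamed HA protein (1.25%, all genes 0.744%). POU2AF1 had 97 in MM1.S cells (40.4%, all genes 48.3%) and 93 in NCI-H929 cells (38.8%, all genes 49.5%), and IRF4 31 (12.9%, all genes 15.4%) and 2 (0.833%, all genes 1.88%). With levels unchanged and the AU-15330 background, 50.9% of HA-POU2AF2 member promoter regions with DMSO would still be called (all promoter regions 55.8%). The share was 87.7% for the POU2F3 antibody in NCI-H526 cells and 98.1% to 100% in the other pairs with recovered pileups. The part of depth in the lower counts was not tested.
The lists also differ in size. When the larger list of a pair was reduced to its strongest regions, as many as the smaller one holds, 8 pairs had more members with AU-15330 and 1 had fewer. The NCI-H526 counts with DMSO and AU-15330 were then 23 and 47 with the POU2F3 antibody and 32 and 62 with HA-POU2F3, while HA-POU2AF2 had 3 and 3. POU2AF1 in MM1.S cells was the pair with fewer, at 105 and 97, and the NCI-H1048 antibody pair kept its direction, at 127 and 186. All genes were not counted in this setting, so whether the members differ from them here is not known.

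Of the members with a DMSO promoter region, the share that still had one was near or below that of all genes. NCI-H526 cells kept 26.4% for POU2F3 (all genes 29.5%), 37.2% for HA-POU2F3 (44%) and 1.92% for HA-POU2AF2 (2.03%). HA-POU2F3 of NCI-H1048 cells kept 15.2% (all genes 27%), which is 5 of 33 members, and the unnamed HA protein 2.86% (3.14%), which is 1 of 35. POU2AF1 kept 66.9% (80.2%) in MM1.S and 68.1% (84.1%) in NCI-H929 cells, and IRF4 26.3% (29.3%) and 1.39% (2.93%). Counted as regions, 22.1% of the 195 member promoter regions of POU2F3 in NCI-H526 cells overlapped an AU-15330 region. The exact 95% binomial interval, for counting error alone, was 16.4 to 28.5, and all promoter regions had 22.5%. HA-POU2F3 in that line had 30.8% (24 to 38.3, all promoter regions 34.4%). POU2AF1 had 62.4% in MM1.S cells (53.9 to 70.4, all promoter regions 67.9%) and 62.7% in NCI-H929 cells (53.3 to 71.4, all promoter regions 74.1%).
Where both lists had a region, the level was mostly lower with AU-15330. The median ratio of AU-15330 to DMSO was 0.901 at 46 members for POU2F3 in NCI-H526 cells (all promoters 0.79), 0.787 at 58 for HA-POU2F3 (0.739), 0.866 at 91 for POU2AF1 (0.807) and 0.855 at 25 for IRF4 (0.77) in MM1.S cells, and 1.02 at 77 for POU2AF1 in NCI-H929 cells (0.981). These are members still called in both lists, and those no longer called are not in the ratio.

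In NCI-H1048 cells the POU2F3 antibody list was larger with AU-15330, and members followed. A promoter region was called at 192 members (80%), where 61.5% of all genes and 80.5% of ZNF genes elsewhere had one, against 127 (52.9%) with DMSO. Of the 127 members 125 still had theirs (98.4%, all genes 97.1%), the exceptions being ZNF433 (fold 4.97) and ZNF792 (4.59), and 67 of the 113 without one had one now (59.3%, all genes 38.2%). The level at the 125 was higher with AU-15330 at all but 5, with a median ratio of 2.33 (quartiles 1.72 and 2.75), where all promoters had 2.18. ZNF576 had a fold of 11.9 with DMSO and 21.5 with AU-15330 and levels of 26.9 and 80.3, and ZNF329 14.1 and 17.9 and levels of 35.3 and 73.4. ZNF772 and ZNF701 had no DMSO region and folds of 14.6 (level 26.7) and 14.3 (level 23.7) with AU-15330, the highest of the 67. HA-POU2F3 in the same line had no region at these 2 members under either treatment.
The 101 promoter regions without a DMSO counterpart held fewer ETS sequences than the 126 kept ones, 6.93% against 20.6%, with the octamer core at 7.92% against 11.9% and CCAAT at 38.6% against 30.2%. All promoter regions, not split into kept and new, moved the same way from the DMSO to the AU-15330 list. They had ETS at 9.02% and 7.25%, the octamer core at 9.95% and 5.54%, and CCAAT at 20.6% and 23.1%. The summit at ZNF701, chr19:52570235-52570355 on the plus strand, shown with its 121 bases as one of the strongest new regions, holds none of the sequences searched.
ZNF701: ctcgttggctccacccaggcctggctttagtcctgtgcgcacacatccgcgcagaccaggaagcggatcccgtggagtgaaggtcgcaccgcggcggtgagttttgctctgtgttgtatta
The AU-15330 library was the deeper one of this pair, as the background pileups above show. With the same number of strongest regions in both lists the member counts were 127 and 186, and all genes were not counted. Whether depth has a part in the new regions was not tested beyond this.

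The strongest regions lost and kept differed between proteins. For POU2F3 in NCI-H526 cells the strongest lost promoter regions were at ZNF473 (fold 8.38) and ZNF329 (8.28) and the strongest kept at ZNF428 and ZNF576 (12.1 and 5.71 with AU-15330), and for HA-POU2F3 lost ones were at ZNF708 (8.58) and ZNF544 (7.49). ZNF17 (4.3) was called only with AU-15330 for POU2F3, and ZNF582 (4.64) and ZNF543 (4.6) for HA-POU2F3. HA-POU2AF2 lost ZNF428 (11.3) and ZNF564 (8.46), and the 2 members still called were ZNF568 (4.23 and 5.29) and ZNF614 (3.77 and 3.69). At ZNF568 the DMSO and AU-15330 regions lie at different starts of the gene, and the AU-15330 region, at the start it shares with ZNF829, is the only one of HA-POU2AF2 at ZNF829. In NCI-H1048 cells HA-POU2F3 lost ZNF625 (8.36) and ZNF784 (7.13), and of its 5 kept regions 4 had the octamer core. The unnamed HA protein lost ZNF625 (5.33) and ZNF439 (4.33) and had ZNF446 (3.9) and ZNF549 (3.67) only with AU-15330. Among myeloma lists POU2AF1 lost ZNF100 (7.08) and ZNF181 (6.39) in MM1.S and ZNF460 (6.59) and ZNF606 (6.29) in NCI-H929 cells. IRF4 kept ZNF266 (6.23 and 3.62) and ZNF562 (5.97 and 5.15) in MM1.S cells. It lost ZNF296 (8.44) and ZNF317 (6.48) in MM1.S and ZNF799 (8.42) and ZNF226 (7.89) in NCI-H929 cells, where it kept only ZNF443 (5.14 and 3.92) and ZNF576 (4.22 and 4.27). Promoter regions called only with AU-15330 included ZNF875 (7.92) and ZNF429 (5.86) for POU2AF1 in NCI-H929 cells and ZNF224 (5.76) and ZNF550 (4.88) in MM1.S cells, ZNF444 (4.95) and ZNF580 (4.8) for IRF4 in MM1.S cells, and ZNF682 (5.02) and ZNF562 (4.87) for HA-POU2F3 in NCI-H1048 cells.

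Gene bodies of the family held few regions. With DMSO a body region was called at 37 members for POU2F3 in NCI-H526 cells (15.4%, all genes 45.4%), at 38 for HA-POU2F3 (15.8%, all genes 36.6%) and at 23 for HA-POU2AF2 (9.58%, all genes 29%). In NCI-H1048 cells the counts were 20 for POU2F3 (8.33%, all genes 29%), 20 for HA-POU2F3 (8.33%, all genes 20.5%) and 11 for the unnamed HA protein (4.58%, all genes 19.3%). POU2AF1 had 20 in MM1.S cells (8.33%, all genes 32.5%) and 12 in NCI-H929 cells (5%, all genes 28.3%), and IRF4 16 (6.67%, all genes 30.6%) and 28 (11.7%, all genes 43.6%). Median gene length is 25.5 kb for members and 27.5 kb for all genes, and per Mb of body the members had 1.56 to 12.9 regions over the DMSO lists and all genes 5.81 to 30.
With AU-15330 the counts were 12 (5%, all genes 18.5%), 13 (5.42%, all genes 15.8%) and 3 (1.25%, all genes 5.05%) for POU2F3, HA-POU2F3 and HA-POU2AF2 in NCI-H526 cells, and 9 (3.75%, all genes 8.82%) and 2 (0.833%, all genes 2.33%) for HA-POU2F3 and the unnamed HA protein in NCI-H1048 cells. POU2AF1 had 18 (7.5%, all genes 21%) and 8 (3.33%, all genes 15.8%) in MM1.S and NCI-H929 cells and IRF4 1 in each (0.417%, all genes 8.24% and 3.38%). With the same number of strongest regions in both lists, body counts too were higher with AU-15330 in 8 pairs and lower in 1. These again have no counts for all genes beside them.

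Much of the body signal in NCI-H526 cells came from 1 gene. ZNF536, which encodes a zinc finger repressor of neuronal differentiation without a KRAB pattern, spans 489 kb (chr19:30224891-30713586) and held 35 of the 83 member body regions of POU2F3 with DMSO, 23 of 64 of HA-POU2F3 and 14 of 33 of HA-POU2AF2. Its strongest POU2F3 region, printed above, had a fold of 9.85, and regions at chr19:30394112-30394578 had 9.54 for POU2F3, 8.74 for HA-POU2F3 (chr19:30394209-30394576) and 6.89 for HA-POU2AF2 (chr19:30394221-30394611). With AU-15330 it held 6 POU2F3 regions, 1 HA-POU2F3 region and no HA-POU2AF2 region. In NCI-H1048 cells it had 5 POU2F3 regions with DMSO and 3 with AU-15330, and in myeloma cells POU2AF1 had 1 body region in each line with DMSO and 1 in MM1.S cells with AU-15330, and IRF4 had no body region but a promoter region in NCI-H929 cells with DMSO (fold 4.84). Without this gene, a look taken after its values were seen, members had 8.52, 6.55 and 3.81 regions per Mb of body in the 3 NCI-H526 DMSO lists in place of 12.9, 9.36 and 5.53.
Other strong body regions with DMSO in NCI-H526 cells lay at ZNF160 for POU2F3 (9.99), ZNF404 for HA-POU2F3 (9.76) and ZNF541 for HA-POU2AF2 (5.65). Those of NCI-H1048 cells lay at ZNF93 for POU2F3 (7.66) and ZNF723 for HA-POU2F3 (6.5). The strongest myeloma body regions were those of IRF4 in NCI-H929 cells at ZNF586 (12.5) and ZNF677 (10.5). In MM1.S cells ZNF112 (9.53) and ZNF787 (8.61) led for IRF4 and ZNF787 (7.3) and ZNF709 (7.22) for POU2AF1, and in NCI-H929 cells ZNF490 (8.68) and ZNF709 (7.1) for POU2AF1.

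The POU2F3 antibody of NCI-H1048 cells differed from every other pair in gene bodies too. A body region was called at 78 members with AU-15330 (32.5%, all genes 38%), against 20 with DMSO, and members had 15.5 regions per Mb, where all genes had 14.7 (3.55 and 11.6 with DMSO). The other genes of chromosome 19 rose as well, from 16% to 32.1% of genes and from 9.82 to 24.8 regions per Mb. ZNF genes elsewhere rose from 24.2% to 36.9% and from 10.4 to 17.3 per Mb. These densities count a region once for each gene it lies in, and counted once in all the members had 14.5 (3.4 with DMSO). Of the 102 distinct regions of the antibody list with AU-15330, 94 had no DMSO counterpart, and 92 lay within 1 kb of no other annotated start. Their median fold was 3.93, and 24.5% of the new ones had the octamer core at the summit, against 45.8% of the 24 DMSO regions. All regions outside promoters had it at 33.1% with AU-15330 and 53.1% with DMSO. The 102 regions were spread over many members, with 5 at ZNF420, 4 at ZNF850 and 3 each at ZNF83, ZNF180, ZNF536 and ZNF626. With each gene divided into 4 equal parts from start to end, 8, 30, 30 and 34 lay in them, 17 overlapped an exon and 8 the last coding exon, which carries the fingers (7.84% of regions, 4.8% of gene bases). Regions in promoter windows are left out of these counts, which lowers the number in the first part. A region counts by overlap, so its share is not on the same basis as a share of bases. By cluster, the density of distinct regions with AU-15330 was 24.1 per Mb in ZNF575 to ZNF180 (DMSO 2.19), 18 in ZNF565 to ZNF573 (0.945), 17.2 in ZNF175 to ZNF331 (0.858) and 11.9 in ZNF101 to ZNF254 (4.16), and ZNF302 to ZNF792 and ZNF628 to ZNF835 had 0. The 1 body region of ZNF580 (fold 4.78), in the last of these, lies in the promoter of a neighbouring member and is not among the distinct ones.

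**Figure D5:**
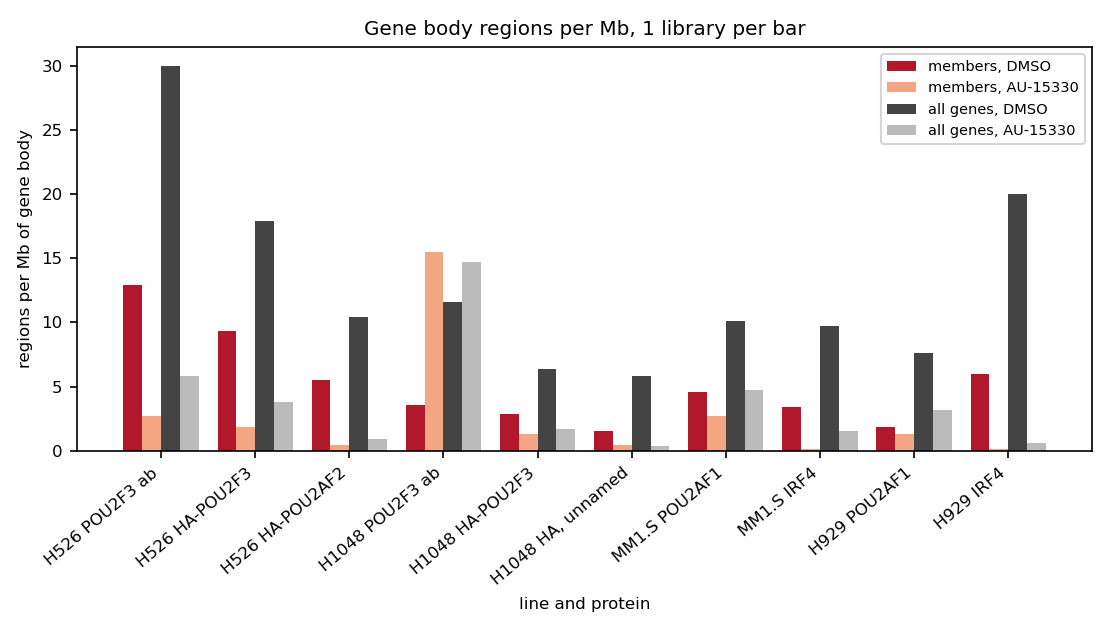
Regions per Mb of gene body (y axis, from 0) in each pair (x axis) for members (red, DMSO dark and AU-15330 light) and all protein-coding genes (grey, DMSO dark and AU-15330 light), each bar from 1 library. Members lie below all genes in every DMSO list, and in the NCI-H1048 POU2F3 pair the AU-15330 bars of members (15.5) and all genes (14.7) are close.

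The genes of the corepressor pathway that KRAB proteins use also had promoter regions, above the share of all genes in each DMSO list. Of 21 such genes 18 had one for POU2F3 (85.7%, all genes 57%), 20 for HA-POU2F3 (95.2%, all genes 50.6%) and 14 for HA-POU2AF2 (66.7%, all genes 37.3%) in NCI-H526 cells with DMSO. In NCI-H1048 cells 15 had one for POU2F3 (71.4%, all genes 39.7%), 7 for HA-POU2F3 (33.3%, all genes 16.2%) and 8 for the unnamed HA protein (38.1%, all genes 17.2%). All 21 had one for POU2AF1 in MM1.S cells (all genes 58.5%), 18 for IRF4 in that line (85.7%, all genes 46.8%), and 17 for each of both proteins in NCI-H929 cells (81%, all genes 55.3% for POU2AF1 and 62.6% for IRF4). ATF7IP, a partner of SETDB1, and DAXX, a histone chaperone partner, had one in all 10 DMSO lists, and TRIM28 itself in 9. With AU-15330 the counts were 11, 10 and 1 in NCI-H526 cells (all genes 17.1%, 24.7% and 0.973%), 20, 5 and 1 in NCI-H1048 cells (61.5%, 7.7% and 0.744%), 18 and 4 for POU2AF1 and IRF4 in MM1.S cells (48.3% and 15.4%) and 17 and 2 in NCI-H929 cells (49.5% and 1.88%).

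Some values are shared between neighbours or uncertain. The promoter windows of 18 members overlap that of another member, 14 of them on the opposite strand, and 37 overlap that of another protein-coding gene, so 11 of the 195 NCI-H526 POU2F3 promoter regions count for more than 1 member. Near-identical copies can share or lose reads, so counts at recently duplicated members are uncertain, and how reads with several placements were treated in ChIP-seq was not given in the sources used here. Of the 50-base words in a member's promoter, a median of 0.538% occur again elsewhere on the chromosome, against 0.307% for the other genes of chromosome 19, and in 18 members over 10% do. The median was 0.205% in the 174 members with and 2.02% in the 66 without a POU2F3 promoter region in DMSO-treated NCI-H526 cells, but 8.62% of the former and 4.55% of the latter were over 10%. For the unnamed HA protein the medians were 0.666% with and 0.512% without a region, and the cluster ZNF175 to ZNF331 had 2.36%. Its part in the missing regions was not tested.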

How the data were processed

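ChIP-seq of 20 libraries from 4 cell lines was used, as peak lists deposited per library. Reads were trimmed by the authors (Trimmomatic 0.39), aligned to GRCh38/hg38 with BWA and filtered with Picard and SAMtools. Peaks were called with MACS2 at a q-value of 0.05, with no control sample in the stated command, and blacklisted regions were removed. As deposited, each region carries a score, a fold enrichment of its summit over the local background, a −log10 p-value and a −log10 q-value, all computed by MACS2 within 1 library, and in 18 lists the summit's offset in bases. The other 2 lists, both of the unnamed HA protein, hold no summits. No column of per-sample values was left unused (0). Read depth was not given in the sources used here, so the background pileup, which solves each −log10 p within 0.002 for its fold, stands in for it.

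On chromosomes 1 to 22, X and Y, regions were assigned by 1 base of overlap to promoters (1 kb to either side of each protein-coding TSS of GENCODE 44) and, outside these, to gene bodies with 1 kb upstream. Regions on other sequences, 0.283% to 12.4% of a list, were left out. With 1 library per condition no test was possible, shares of regions carry exact (Clopper-Pearson) 95% binomial intervals, which cover counting error alone, and the counts per list are set beside all genes. Motifs were searched on both strands within 100 bases of a summit, and in windows from 250 bases before to 50 after the canonical start of all genes, read from the GRCh38 genome. The printed promoters come from RefSeq. The IRF pattern is a degenerate consensus with a pair of spaced GAAA-type repeats. KRAB domains and C2H2 fingers were found by letter patterns in translated GENCODE coding sequences, in place of the RefSeq proteins planned, and the KRAB pattern was widened after a narrower one missed members, judged on proteins alone.

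The members named are those with a promoter region in all 10 DMSO lists, the 2 strongest lost, kept and gained promoter regions of each pair, the 2 strongest body regions of each DMSO list, and ZNF274, ZNF91, ZNF93, ZNF331, ZNF568 and ZNF808. Most of the regions this rule selects are given with their values, and some are not reported here. Members named for a count of 5 or fewer, an extreme or a motif were chosen after their values were seen, as were ZNF30, ZNF382, ZNF432 and ZNF880. The members, gene lists and rules were chosen with earlier results of these data known. The alternatives tried were stricter calls (−log10 q of 5 or more), equal numbers of strongest regions in both lists of a pair, the canonical TSS alone, and an overlap of 50%. Python 3.11.15, numpy 2.4.6, scipy 1.17.1 and matplotlib 3.10.9 were used, and the counting was tested on simulated regions.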

Additional observations from a re-analysis of the deposited data

Results flagged for a closer look

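For the POU2F3 antibody the lists of NCI-H526 and NCI-H1048 cells moved in opposite directions with AU-15330, and the difference was not tested, since each rests on 1 library per condition. In NCI-H526 cells the change in members with a promoter region was -127 and in NCI-H1048 cells 65. For members with a gene body region the change was -25 in NCI-H526 and 58 in NCI-H1048 cells. With equal numbers of strongest regions in both lists of a pair, the antibody counts were higher with AU-15330 in both lines, and so were those of HA-POU2F3, which as deposited were lower in both. All genes were not counted with equal numbers.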

How the results depend on the processing

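All values rest on 1 library each, and no paired analysis was possible because no result comes from a test. Fewer members with AU-15330 in 9 of 10 pairs, and more for the POU2F3 antibody in NCI-H1048 cells, was also found at a −log10 q of at least 5, with an overlap of 50% and, for promoters, with the canonical start, which gave 8 lower and 1 higher for bodies. With equal numbers of strongest regions 8 pairs were higher with AU-15330 and 1 lower, for promoters and bodies alike. The alternatives were counted over members alone, without the shares of all genes. Values that moved by more than 1.5 times, or for shares beyond their interval, follow. In these the order is POU2F3 antibody, HA-POU2F3 and HA-POU2AF2 in NCI-H526, POU2F3 antibody, HA-POU2F3 and unnamed HA in NCI-H1048, POU2AF1 and IRF4 in MM1.S, and the same in NCI-H929 cells.

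At a −log10 q of at least 5, members with a promoter region numbered 29 for POU2F3 with AU-15330 in NCI-H526 cells, where DMSO and AU-15330 gave 101 and 23 with HA-POU2F3 and 65 and 0 with HA-POU2AF2, 14 and 2 for HA-POU2F3 and 3 and 0 for unnamed HA in NCI-H1048 cells, 61 for POU2AF1 with AU-15330 and 50 and 10 for IRF4 in MM1.S cells, and 0 for IRF4 with AU-15330 in NCI-H929 cells. Members with a body region numbered 22 and 4, 16 and 1, 11 and 0, 12 and 42, 7 and 3, 1 and 0, 13 and 2, and 10 and 0 for the first 8 pairs, and 4 and 0 with AU-15330 for the last 2. Members with both were 29, 20, 0, 2, 0, 56, 6, 50 and 0, in pair order without the NCI-H1048 antibody. Promoter regions retained were 17.3% for HA-POU2F3 and 0% for HA-POU2AF2 in NCI-H526, 98.8% for POU2F3 and 0% for unnamed HA in NCI-H1048, 48.7% for POU2AF1 and 9.09% for IRF4 in MM1.S (bodies 0% for both), and 0% for IRF4 in NCI-H929 cells.

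With equal numbers, DMSO promoter counts became 23, 32 and 3 in NCI-H526, 9 and 1 for the HA lists of NCI-H1048, 13 for IRF4 in MM1.S and 0 for IRF4 in NCI-H929 cells. DMSO body counts became 4, 5 and 1, then 2 and 1, 10 and 4 in MM1.S cells, and 0 for IRF4 in NCI-H929 cells. Members with both became 16, 19 and 0 in NCI-H526, 4 for IRF4 in MM1.S and 0 for IRF4 in NCI-H929 cells. Retained promoter regions were 68.2% (bodies 76.9%), 48.4% and 0% in NCI-H526, 44.4% and 100% for the HA pairs of NCI-H1048, 72.5% and 30.8% (IRF4 bodies 0%) in MM1.S, and 75.9% for POU2AF1 in NCI-H929 cells. Few regions remain behind these shares. In NCI-H526 cells they were 22 promoter and 13 body regions for POU2F3, 31 promoter regions for HA-POU2F3 and 3 for HA-POU2AF2. The 100% of the unnamed HA protein comes from a DMSO list with 1 member left. No DMSO region remained for 2 of the 20 retained shares, which have no value.

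With the canonical start alone, bodies gave 37 for HA-POU2AF2 with DMSO, and 4 for IRF4 in MM1.S and 18 for POU2AF1 in NCI-H929 cells with AU-15330, and HA-POU2AF2 had 1 member with both. With an overlap of 50%, HA-POU2AF2 had 1 member with AU-15330 and 1 with both, and retained promoter regions were 13.8% and 16.9% for POU2F3 and HA-POU2F3 in NCI-H526, 0% for unnamed HA in NCI-H1048, 44.7% and 3.81% (IRF4 bodies 0%) in MM1.S, and 46.6% for POU2AF1 in NCI-H929 cells. Without ZNF536, an alternative chosen after seeing the data, members had 8.52 body regions per Mb for POU2F3 with DMSO in NCI-H526 cells. Beyond list size, which the alternative with equal numbers fixes, the cause of these shifts was not tested.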
